A study of Mus musculus with 2 samples.

Results

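GABA-A receptors are chloride channels built from several homologous subunits. Here 7 subunit genes are described in pools labelled as layer 5 pyramidal neurons of the mouse cortex. These genes are the alpha subunit genes Gabra2, Gabra3, Gabra4 and Gabra5, the beta subunit genes Gabrb1 and Gabrb2, and the delta subunit gene Gabrd. They were chosen by name, matched by gene identifier, and make up 7 of 43346 genes in the tables. All 7 were found in each library, and none was removed by a filter on low values.

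RNA was sequenced from 2 libraries of 1 group, called replicate 1 and replicate 2, with no second condition. Each library came from a pool of 50 cells taken by laser capture from wild-type male mice aged 8 months. The cells are labelled as pyramidal neurons of layer 5, and markers of other cell types were also detected, as given below. The labels give the strain as B6NCrl in one field and as C57Bl6 or C57Bl5 in others, and carry an antibody tag that reads Control. Both libraries carry the same donor identifier, and a shared animal is possible, in which case the SDs below include no spread between animals. A pool of captured cells is a bulk sample, in which fewer cells of a type and less RNA per cell cannot be told apart.

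In a GABA-A receptor 5 subunits surround the pore, and GABA binds where a beta subunit meets an alpha subunit. The alpha subunit largely sets the response to benzodiazepines and the place of the receptor on the cell. Receptors with alpha2 or alpha3 are known mainly from synapses, and alpha2 is enriched at the axon initial segment of pyramidal neurons. Receptors with alpha5, or with alpha4 and delta together, are known mainly from extrasynaptic membrane, where they carry tonic inhibition.

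The sequences that divide the alpha members are shown because the levels below are grouped by them. In each of the 4 lines the coding strand is written 5′ to 3′ from GENCODE M21 transcripts on GRCm38, and the capitals mark the codon of a residue in the benzodiazepine site. The stretches lie in exon 5 of Gabra2 (chr5:71014478-71014534), exon 5 of Gabra3 (chrX:72501141-72501197), exon 5 of Gabra5 (chr7:57488864-57488920) and exon 4 of Gabra4 (chr5:71641125-71641181), all on the minus strand.
Gabra2: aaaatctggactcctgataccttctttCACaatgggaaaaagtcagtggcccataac
Gabra3: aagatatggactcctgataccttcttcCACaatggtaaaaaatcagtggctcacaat
Gabra5: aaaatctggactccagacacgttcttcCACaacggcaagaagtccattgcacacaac
Gabra4: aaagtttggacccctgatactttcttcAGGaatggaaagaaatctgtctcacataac
Gabra2, Gabra3 and Gabra5 carry CAC, a histidine codon, at codons 129, 154 and 136 counted from the start codon. Gabra4 carries AGG, an arginine codon, at codon 135. Histidine at this place is the classical mark of receptors that respond to diazepam, and arginine that of receptors that do not.

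The beta members differ at a codon of the second membrane segment, where asparagine is known to give sensitivity to the anaesthetic etomidate and serine to reduce it. The capitals mark that codon in exon 8 of Gabrb1 (chr5:72121954-72122010) and exon 9 of Gabrb2 (chr11:42597546-42597602), both on the plus strand.
Gabrb1: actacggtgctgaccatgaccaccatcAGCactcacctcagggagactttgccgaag
Gabrb2: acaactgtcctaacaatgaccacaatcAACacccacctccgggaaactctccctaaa
Gabrb1 carries AGC, a serine codon, at codon 290, and Gabrb2 carries AAC, an asparagine codon, at codon 289. Over the aligned coding bases Gabrb1 and Gabrb2 were 73.0% identical. The alpha members were 69.0% to 73.7% identical to each other, closest between Gabra2 and Gabra3. Gabrd was 61.1% to 64.4% identical to the other members.

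All 7 genes were present at similar levels, and most of them differed little between the pools. Levels are in TPM, which scales reads by transcript length and library total and so allows genes to be set side by side. The members lay between 27.7 and 45.7 TPM in replicate 1 and between 22.4 and 48.2 TPM in replicate 2. Their median was 39.2 TPM in replicate 1, against 38.8 TPM in replicate 2. The median of 21474 protein-coding genes was 2.02 TPM in replicate 1, against 1.84 TPM in replicate 2. By rank the members lay at percentiles 83.4 to 88.7 of protein-coding genes in replicate 1 and 80.5 to 88.9 in replicate 2. Together they summed to 263 TPM in replicate 1, against 251 TPM in replicate 2.

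**Figure D1:**
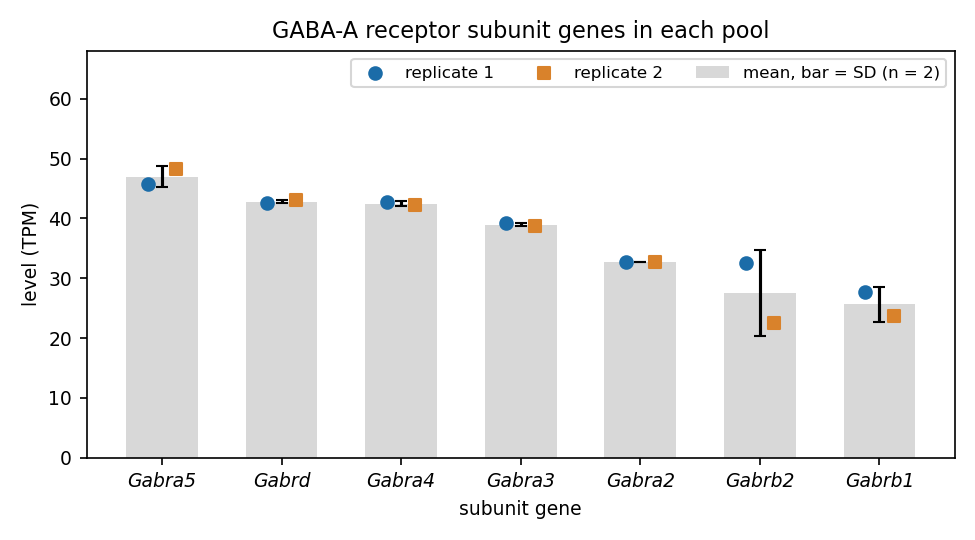
Level of each subunit gene in TPM. Circles are replicate 1, squares are replicate 2, grey bars are the mean and error bars the SD (n = 2). Gabra5 is highest at 46.9 TPM in the mean, and Gabrb2 has the widest spread.

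Among the alpha genes, Gabra5 was the highest in each library. Gabra5 (chr7:57407672-57510059, minus strand) reached 45.7 TPM in replicate 1, against 48.2 TPM in replicate 2 (46.9 ± 1.75, SD, n = 2). These values came from 2335 and 2755 estimated reads, with exact 95% Poisson intervals of 2241 to 2432 in replicate 1 and 2653 to 2860 in replicate 2. Such intervals cover the counting error of reads only. Reads without molecular identifiers are not independent molecules, so the error of counting molecules may be wider. Gabra5 is the alpha subunit known chiefly from the hippocampus and from deep cortical layers.

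Gabra4 (chr5:71569749-71658308, minus strand), the arginine-type alpha gene, followed closely. It had a level of 42.7 TPM in replicate 1, against 42.2 TPM in replicate 2 (42.5 ± 0.38, SD, n = 2), from 3440 and 3802 reads. Gabra3 (chrX:72432681-72656848, minus strand), an X-linked member, had 39.2 TPM in replicate 1, against 38.8 TPM in replicate 2 (39.0 ± 0.29), from 2014 and 2565 reads. Gabra2 (chr5:70957597-71095849, minus strand) was the lowest alpha gene, with 32.8 TPM in replicate 1, against 32.7 TPM in replicate 2 (32.7 ± 0.05), from 1503 and 1679 reads. No alpha gene dominated, since the highest share, that of Gabra5 in replicate 2, was 29.8% of the alpha total.

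Within the summed TPM of the 4 alpha genes, Gabra5 held 29.1% ± 0.90, Gabra4 26.4% ± 0.40, Gabra3 24.2% ± 0.33 and Gabra2 20.3% ± 0.16 (SD, n = 2 each). The 3 genes with the histidine codon shown above held 73.4% of the alpha total in replicate 1 and 73.9% in replicate 2 (73.6% ± 0.40). The remainder was Gabra4. These are shares of gene TPM, not of transcripts that carry the codon. Gabra2 was counted on 1 transcript with 228 coding bases in GENCODE M21, not on the one whose codon is shown. Over transcripts marked protein-coding there, Gabra2 had 0 and Gabra3 34.0 TPM in replicate 1. Gabra4 and Gabra5 were unchanged, so the share would be lower. Not every alpha gene of the family was analysed here, so these are shares of the listed genes and not of all alpha transcripts.

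Gabrd (chr4:155384980-155398112, minus strand) encodes delta, which partners alpha4 in forebrain extrasynaptic receptors. It had a level of 42.6 TPM in replicate 1, against 43.0 TPM in replicate 2 (42.8 ± 0.29, SD, n = 2), from 1537 and 1774 reads. The Gabrd level was 0.996 times that of Gabra4 in replicate 1 and 1.02 times in replicate 2. The order of the 2 genes thus changed between the libraries, and their difference of 0.01 ± 0.02 in log2(TPM + 1) lay within the spread.

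The beta genes were the lowest members in the mean and the least alike between the pools. Gabrb2 (chr11:42419757-42629028, plus strand) had a level of 32.6 TPM in replicate 1, against 22.4 TPM in replicate 2 (27.5 ± 7.18, SD, n = 2), from 1674 and 1496 reads. Gabrb1 (chr5:71658113-72149037, plus strand) had a level of 27.7 TPM in replicate 1, against 23.6 TPM in replicate 2 (25.6 ± 2.86), from 1654 and 1581 reads. Both were higher in replicate 1. Gabrb2 held 54.1% of the pair in replicate 1 and 48.7% in replicate 2, so which of them was higher depended on the library. The summed TPM of the 4 listed alpha genes was 2.66 times that of the 2 listed beta genes in replicate 1 and 3.51 times in replicate 2. Not all alpha, beta and gamma genes were analysed here, so these multiples and the share of the beta pair depend on which genes are listed and are not ratios of all alpha to all beta transcripts.

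The order of mean TPM was Gabra5, Gabrd, Gabra4, Gabra3, Gabra2, Gabrb2 and Gabrb1. Of the 6 neighbouring pairs in it, 3 kept their order in each library with a mean difference above 1 SD. These were Gabra5 over Gabrd by 0.13 ± 0.04, Gabra4 over Gabra3 by 0.12 ± 0.002 and Gabra3 over Gabra2 by 0.24 ± 0.01 in log2(TPM + 1). Gabra2 over Gabrb2 was 0.27 ± 0.37 and Gabrb2 over Gabrb1 was 0.08 ± 0.21, both within the spread. Of all 21 pairs of members, 18 kept their order with a mean difference above 1 SD. The order was taken from the mean of the same 2 libraries, so these counts describe it and are no separate check of it. With 2 libraries no test between genes was run.

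The pools were compared by CPM, reads scaled to a library size with TMM factors, as replicate 1 over replicate 2. None of the 7 members differed by 2-fold, beside 4.46% of the 9190 genes whose mean CPM was 10 or more. None differed by 1.5-fold either, beside 16.9% of those genes, with 7.94% higher in replicate 1 by that much. Among the 1810 genes in the members' own range of mean CPM (64.2 to 146) the share past 1.5-fold was 9.72%, and a count of 0 among 7 genes is close to it. The median size of the members' log2 ratio, sign ignored, was 0.08, against 0.26 over the 9190 genes and 0.21 over those 1810 genes. On log2(TPM + 1) it was 0.02 for the members, 0.26 over the 9190 genes and 0.22 over those 1810 genes. With 1 library on each side these ratios have no replicate check.

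Counting error alone was smaller than the difference for 3 members. The CPM ratio of Gabrb2 was 1.25, with an exact conditional 95% interval of 1.17 to 1.34, that of Gabrb1 was 1.17 (1.09 to 1.25) and that of Gabra3 was 0.878 (0.828 to 0.931). Such an interval left out 1 for 75.4% of the 9190 genes, so 3 of 7 was below that share. The share among genes in the members' own range of mean CPM was not computed. The ratios of Gabra2 at 1.00 (0.933 to 1.07), Gabra4 at 1.01 (0.966 to 1.06), Gabrd at 0.969 (0.904 to 1.04) and Gabra5 at 0.947 (0.896 to 1.00) had intervals that include 1. Scaling to spike-in totals in place of TMM moved the median log2 ratio of all these genes up by 0.35 and that of the members by 0.36, and all 7 members were then higher in replicate 1, Gabrb2 past 1.5-fold.

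**Figure D2:**
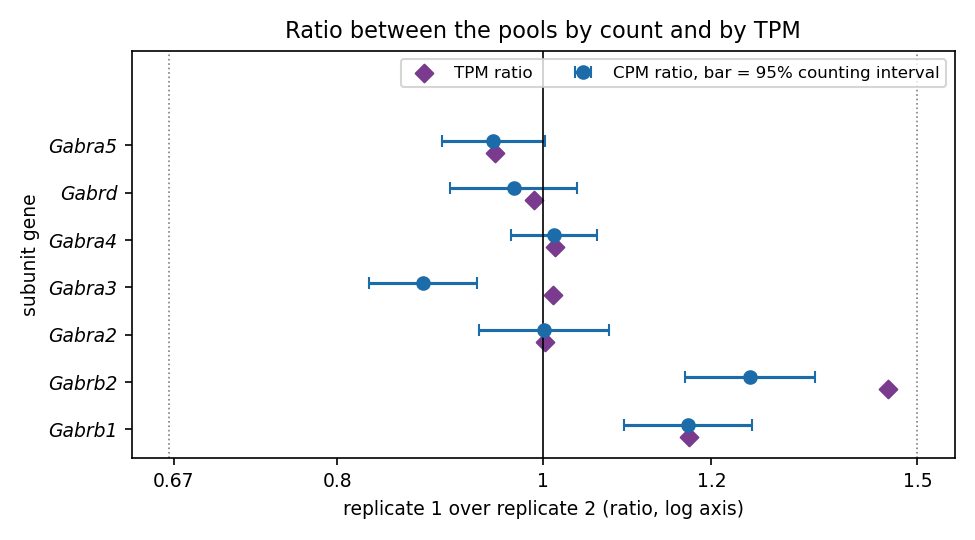
Replicate 1 over replicate 2 for each subunit gene on a log axis. Circles are CPM ratios with 95% counting intervals, diamonds are TPM ratios, and dotted lines mark 1.5-fold. Gabra3 and Gabrb2 are the members whose CPM and TPM ratios part, at 0.878 against 1.01 and 1.25 against 1.45.

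For Gabra3 and Gabrb2 the ratio depended on whether reads or TPM were compared. The TPM ratio of Gabra3 was 1.01 and its CPM ratio 0.878, and for Gabrb2 they were 1.45 and 1.25. TPM divides reads by an effective length that follows the mix of transcripts. For Gabra3 that length was 2572 bases in replicate 1 and 2956 bases in replicate 2, and for Gabrb2 2568 and 2978 bases. A change of at least 10% in effective length was found for these 2 of 7 members and for 17% of the 9190 genes. For Gabrd the effective length was 1805 and 1843 bases, and the other 4 members were counted on 1 transcript each.

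Transcript values were used for replicate 1, and whether a transcript is protein-coding was read from GENCODE M21. Gabrd was carried by 1 protein-coding transcript of 1921 bases, with 97.0% of the gene's TPM. Gabra3 and Gabrb2 were divided more evenly, with leading shares of 55.5% and 54.7%. The median leading share was 70.9% over 5034 protein-coding genes with several transcripts and TPM of at least 10, and 36.3% of them had a leading share under 60%.

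Gabra3 was split between 2 protein-coding transcripts that start at different exons. The longer, of 3662 bases, held 55.5% of the TPM and 76.9% of the reads (1548 reads, posterior SD 33.2). The shorter, of 1790 bases, held 31.4% of the TPM and 20.6% of the reads (415 reads, posterior SD 32.8). Only its annotated transcript is shorter: it has 1599 coding bases, against 1476 in the longer transcript. A noncoding transcript of 589 bases held 13.2% of the TPM from 50.5 reads. The 80 coding bases of the first exon of the shorter transcript (chrX:72656655-72656734, minus strand) are absent from the longer one and are shown because they tell the coding forms apart.
Gabra3 shorter form: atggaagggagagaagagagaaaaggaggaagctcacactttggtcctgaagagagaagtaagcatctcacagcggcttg
The deposited gene length is the mean over transcripts weighted by their shares, and so bounds the share of the longest transcript in the library whose transcripts were not analysed here. It was 2671 bases for Gabra3 in replicate 1, against 3055 bases in replicate 2. A length of 3055 bases allows the longer form a share of 67.6% to 80.3% of the TPM, above the 55.5% given for replicate 1. No error is attached to these lengths, so whether the shift exceeds assignment error was not tested.

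Gabrb2 had 5 listed transcripts, of which 2 are protein-coding. The longer coding form, of 3989 bases, held 54.7% of the TPM and 82.8% of the reads (1386 reads, posterior SD 27.7). The shorter coding form, of 1539 bases, held 16.7% of the TPM and 9.38% of the reads (157 reads, posterior SD 27.6). It contains an exon of 114 bases, or 38 codons, that the longer form lacks (chr11:42602115-42602228, plus strand), shown because it tells these forms apart. Only the annotated transcript is shorter: the form with this exon has 1536 coding bases, against 1422 in the other.
Gabrb2 shorter form: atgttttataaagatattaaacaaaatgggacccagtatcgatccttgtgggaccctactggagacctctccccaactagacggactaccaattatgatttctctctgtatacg
A noncoding transcript of 658 bases held 26.6% of the Gabrb2 TPM from 97.1 reads, or 5.80% of the reads. Protein-coding transcripts together held 71.4% of the Gabrb2 TPM and 86.8% of the Gabra3 TPM in replicate 1, and the median over the 5034 genes was 93.5%. Coding Gabrb2 thus had 23.3 TPM, below Gabrb1 at 27.7 TPM, whereas the gene values in replicate 1 put Gabrb2 higher. In replicate 2 the Gabrb2 length of 3077 bases allows the longer form any share from 28.7% to 74.4%, a range that includes its share in replicate 1.

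**Figure D3:**
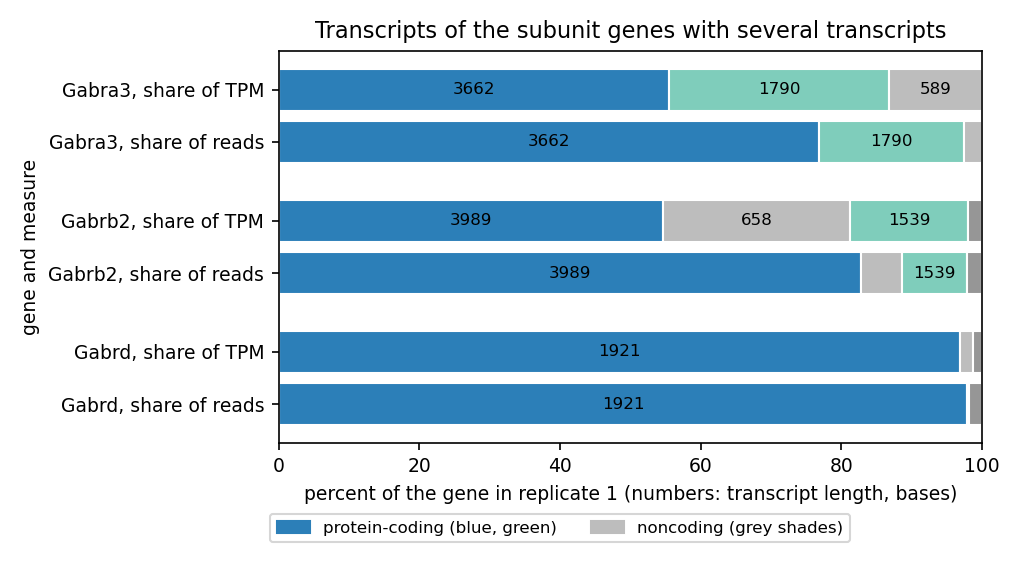
Percent of each gene held by each transcript in replicate 1, for the 3 subunit genes with several transcripts, as a share of TPM and as a share of reads. Numbers in the bars are transcript lengths in bases. The leading Gabra3 and Gabrb2 transcripts hold 55.5% and 54.7% of TPM but 76.9% and 82.8% of reads.

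The other 4 members were counted on 1 transcript each, and the annotation has since changed for some. Gabra2 was counted on a transcript listed at 2392 bases. GENCODE M21 gives that transcript 2245 bases, of which 228 are coding, and marks it as subject to nonsense-mediated decay. M21 has 6 Gabra2 transcripts, among them the one with 1353 coding bases whose codon is shown above. Reads from coding and noncoding forms of Gabra2 therefore cannot be told apart in these tables. The Gabrb1 transcript was listed at 3089 bases and has 13737 in M21. The Gabra4 transcript was listed at 4123 bases and has 4108 in M21, and that of Gabra5 at 2653 bases and 2671 in M21. TPM depends on the listed lengths, so the levels and places of Gabrb1 and Gabra2 in the order depend on the annotation. The SDs given here do not cover that, and its size was not tested.

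The posterior SD of the count was 0 for 6 members in each library, and for Gabra5 it was 1.12 reads in replicate 1 and 0.95 in replicate 2. Gabra5 overlaps the antisense gene Gm9962 over 148 exonic bases, and Gm9962 was listed at 28.1 and 22.8 reads. Of the coding 31-mers of Gabra5, 9.12% also occur in Gm9962 transcripts, while for the other 6 members 0% of coding 31-mers occur in a transcript of another gene on either strand. Over whole transcripts, noncoding ends included, the share was 4.70% for Gabra5, 1.70% for Gabra2 and 0% for the other 5. For Gabra2 this was read on the M21 coding transcript, not on the one the reads were counted on. Gabra4 and Gabrb1 lie head to head on chromosome 5 and share 196 bases of their intervals (chr5:71658113-71658308) and 46 exonic bases on opposite strands. How strand was used in counting is not stated, and reads from bases shared on opposite strands may have gone to either gene. For Gabra4 and Gabrb1 the posterior SD was 0 in each library. The M21 form of the transcript counted for each of them shares 0% of its 31-mers with another gene. Their listed lengths differ from M21, so overlap on the forms counted was not tested.

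Genes that act with GABA-A receptors, and related receptor genes, were grouped into lists by role. Of 41 such genes, 29 were detected at TPM of at least 1 in each library. On log2(CPM + 1) none of those above the CPM minimum differed by 2-fold between the pools, beside 4.46% of all genes above it. Kctd8, an auxiliary subunit gene of the GABA-B receptor, lay at that limit, with a difference of -0.97 on that scale and a CPM ratio of 0.487 (0.417 to 0.568) without the added 1. Of 7 scaffold genes of inhibitory synapses 6 were detected in each library, with a median of 7.77 TPM in replicate 1 and 12.2 in replicate 2. Gphn, which encodes the scaffold gephyrin, stood at 22.8 ± 3.68 TPM (SD, n = 2), and Lhfpl4, whose product anchors the receptor at synapses, at 12.6 ± 4.63.

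All 11 receptor trafficking genes passed 1 TPM in both pools, and the list had medians of 33.8 TPM in replicate 1 and 30.1 in replicate 2. Gabarapl2, Gabarapl1 and Gabarap, which belong to the family of GABA-A receptor-associated and autophagy proteins, stood at 655 ± 38.2, 329 ± 62.5 and 299 ± 1.04 TPM. The GABA-B receptor genes Gabbr1 and Gabbr2, whose products form the metabotropic GABA receptor, stood at 72.5 ± 5.25 and 41.1 ± 4.68 TPM. Its auxiliary subunit genes were lower, with Kctd16 at 10.6 TPM in replicate 1, against 4.11 TPM in replicate 2. The Kctd16 CPM ratio of 2.58 (2.06 to 3.23) is past 2-fold and its difference on log2(CPM + 1) is 1.19, but its mean CPM of 7.86 is below the minimum.

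The chloride transporter genes set the direction of GABA-A currents. Slc12a5, the neuronal chloride exporter KCC2, stood at 75.3 ± 17.6 TPM (SD, n = 2), and Slc12a2, the importer NKCC1, at 7.63 ± 1.57. Of the GABA uptake and breakdown genes, the transaminase Abat stood at 30.6 ± 1.15 and Aldh5a1, which oxidises the breakdown product, at 8.33 ± 1.09.

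Rarer subunits of the same family were near the floor. None of the 7 genes Gabra6, Gabre, Gabrp, Gabrq, Gabrr1, Gabrr2 and Gabrr3 reached 1 TPM in either library. Gabra6, known from cerebellar granule cells, had 19 and 17 reads, Gabrq 7 and 39 reads and Gabrr3 3 and 0 reads in replicate 1 and replicate 2. Gabrp, Gabrr1 and Gabrr2 had 0 reads in each library. A count of 0 was taken to allow up to 3 reads, a set limit that was not computed as the Poisson intervals above were. Among glycine receptor genes Glrb, the beta subunit that binds gephyrin, stood at 183 ± 14.9 TPM. Glra2 had 196 and 0 reads, Glra1 had 2 and 0 reads, and the others had 0.

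**Figure D4:**
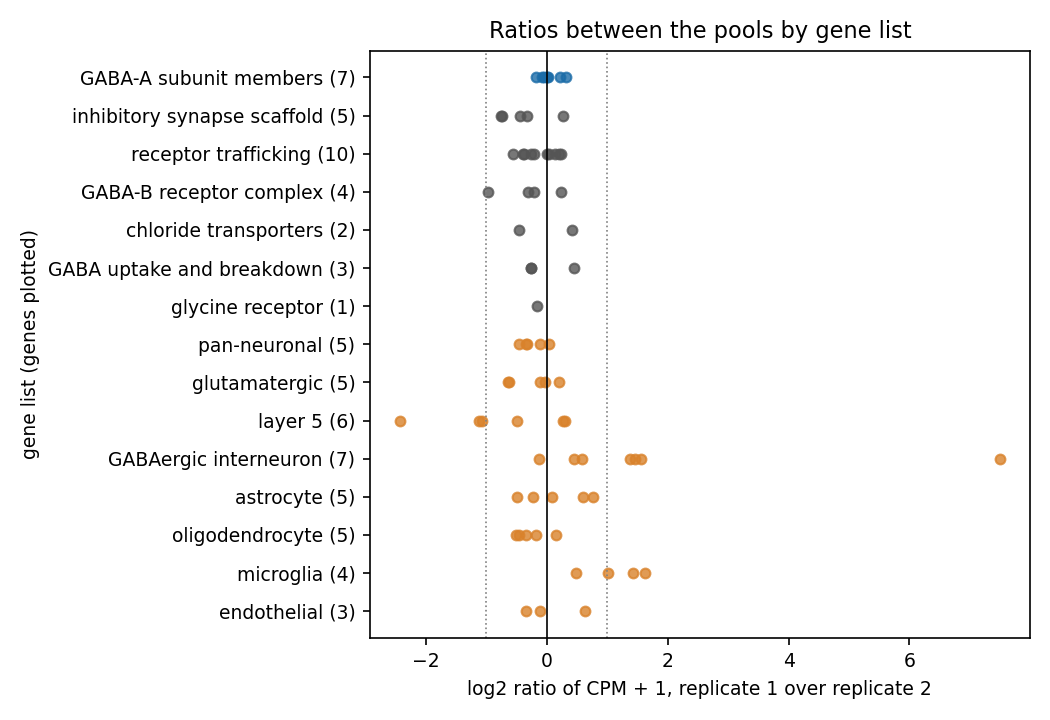
log2 ratio of CPM + 1, replicate 1 over replicate 2, for each gene with a mean CPM of 10 or more, by list. Dotted lines mark 2-fold. The 7 subunit genes lie between -0.19 and 0.32, while interneuron, microglial and layer 5 markers reach past 2-fold.

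The tables sum to 24171434 estimated reads for replicate 1, against 27946180 for replicate 2. The labelled cell type was checked against marker lists: all 5 pan-neuronal, all 5 glutamatergic and all 6 layer 5 markers reached 1 TPM in each library, as did most markers of other cell types. The glutamatergic markers summed to 566 TPM in replicate 1, against 759 TPM in replicate 2. Of the 6 layer 5 markers, Pcp4, Fezf2 and Etv1 were lower in replicate 1 by at least 2-fold, while Bcl11b (12.2 against 10.2 TPM) and Crym (49.7 against 40.4 TPM) were higher there. Pcp4 made up 2134 of the 2300.5 TPM of that list in replicate 1 and 4468 of 4756 TPM in replicate 2. Interneurons also express GABA-A subunits, and 7 of 8 interneuron markers were detected in each library. The 8 summed to 3780.3 TPM in replicate 1, against 1436 TPM in replicate 2, with Sst at 2506 and 844, Npy at 529 and 202, Pvalb at 508 and 338 and Vip at 153 and 0.03 TPM. These sums are above the glutamatergic ones in each library, but sums over different genes do not measure cell numbers. The layer 5 sum was below the interneuron sum in replicate 1 and above it in replicate 2. In replicate 1 the interneuron gene Gad2 (31.7 TPM) was level with the glutamatergic gene Slc17a7 (31.9 TPM), against 11.1 and 49.3 TPM in replicate 2. Slc32a1 (3.63 against 2.66 TPM) and Nrgn (335 against 521 TPM) moved likewise. Lhx6 (5.02 against 5.29 TPM) and Neurod6 (103 against 89.5 TPM) went the other way, and Camk2a (83.4 against 84.4 TPM) was nearly level. Of the 7 interneuron markers with a mean CPM of 10 or more, 4 were higher in replicate 1 by at least 2-fold. Over the 9190 genes 4.46% passed 2-fold either way, the share to set beside these and the layer 5 markers. The subunit genes stayed within 1.5-fold with TMM, while with spike-in totals Gabrb2 passed it.

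Glial and vascular markers were present too. The sums were 509 TPM in replicate 1 and 617 in replicate 2 for 6 astrocyte markers, and 533 and 665 for 5 oligodendrocyte markers. They were 91.6 and 36.1 for 5 microglial markers and 105 and 92.2 for 4 endothelial markers. No marker of any list was at 0 in both libraries. The part of these cells in the subunit levels, and in the difference of Gabrb2 and Gabrb1 between the pools, was not tested.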

How the data were processed

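The authors deposited a gene table for each library with an expected count (estimated reads per gene, not normalized), TPM (per effective length, with spike-ins in the total it is scaled to) and FPKM (per length and depth). For replicate 1 a deposited transcript table also gives each transcript's percent of its gene's TPM. Tables were derived from transcriptome alignments on mm10 with GENCODE M4, per the text files deposited with them. For aligner, quantifier and strand use, nothing is stated.

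GENCODE M21 (GRCm38, that is mm10) supplied symbols, biotypes and coordinates, matched by identifier without version (42462 of 43346). Expected counts were rounded for scaling and intervals. Library sizes used TMM in edgeR 4.0.16 (R 4.3.3), with size factors from DESeq2 1.42.0 as an alternative. Log ratios used a pseudocount of 1. Ratio intervals were exact conditional binomial at 95% and were tested on simulated counts. Those counts had Poisson error only, as the interval assumes, so they do not show how it performs with further spread between pools. No p-value was computed, since 1 group of 2 libraries allows no test between conditions, and no genes of like pattern were named. Codons were read from GENCODE M21 transcripts, since no protein table was used here, and coding sequences were aligned with Biopython 1.88. Other values came from Python 3.11.15, pandas 2.3.3, numpy 2.4.6 and scipy 1.17.1.

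All members are named, with the 3 partner genes of highest mean TPM in each list and any partner past 2-fold at a mean CPM of 10 or more. Some genes this rule selects are not reported here. For marker lists the 3 highest were to be named, but most are given only as sums. Gabre, Gabrp, Gabrr1, Gabrr2, Kctd8, Slc17a7, Gad2, Slc32a1, Lhx6, Bcl11b, Crym, Fezf2, Vip and Gm9962 were named after their values were seen. The members and lists were chosen with earlier results of these data known.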

Additional observations from a re-analysis of the deposited data

How the results depend on the processing

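No paired analysis was possible because there is 1 group of 2 libraries. The summed level of the members was 257 TPM in the mean, 209 in FPKM and 283 with TPM rescaled over genes only, where the unit itself changes the value. Leaving out either replicate gave sums of 251 to 263 TPM, histidine-type alpha shares of 73.4% to 73.9% and Gabrb2 shares of the beta pair of 48.7% to 54.1%. By reads in place of TPM the leading transcripts held 76.9% of Gabra3 and 82.8% of Gabrb2, against 55.5% and 54.7%, because short transcripts count for more per read in TPM. Over coding transcripts alone the members summed to 215 TPM in replicate 1, against 263 TPM over all transcripts, with Gabra2 at 0 by its M21 biotype. The histidine-type share was not recomputed over coding transcripts. No member passed 2-fold under any of 4 scalings, a pseudocount of 0.1, or the TPM ratio, which was added after seeing the data. Of the 6 neighbouring pairs 4 kept their order in each library. In 1 library alone, 5 pairs had that order with either replicate left out, and 3 had it over coding transcripts of replicate 1, where Gabra2 is set to 0. Partner genes detected in each library were 29 at 1 TPM and 23 at 5 TPM. The share of all genes past 2-fold was 10.4% above a mean CPM of 1, and 8.26% with no minimum. The lowest member count was 1496 reads, and 2 libraries limit the precision of every SD. Spike-in scaling turned Gabra3 to 0.17, Gabra5 to 0.28 and Gabrd to 0.31 in log2 ratio, against -0.19, -0.08 and -0.05 with TMM, and the cause was not tested.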
